A study of Mus musculus with 9 samples.

Results

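The autosomal transcriptome of mouse female germline stem cells (FGSCs) was set against that of E12.5 primordial germ cells (PGCs). Of 37980 genes listed for this pair of cell types, 34953 lay on autosomes, and the 12634 autosomal genes above 1 FPKM in FGSCs or in E12.5 PGCs were taken. FPKM gives the fragments of a gene relative to the length of its transcript and to all mapped fragments of the library. Just inside this threshold were 208 genes whose higher value lay between 1 and 1.1 FPKM, and just outside it 249 genes between 0.9 and 1 FPKM. Genes on the X chromosome were left out by this rule, of which 511 passed the same threshold. FGSCs were represented by 2 libraries of GFP-positive cells, sorted from ovaries of Mvh-cre; ROSA mT/mG mice aged 3 to 5 days. E12.5 PGCs were represented by 3 libraries of cells sorted for Mvh from genital ridges of XX embryos of the same reporter line at embryonic day 12.5. In the labels both are female, of the strain C57BL/6 and at passage 0. In this reporter, Cre driven by Mvh (Ddx4) switches a cell and its descendants to green fluorescence, so a sorted cell need not still express Ddx4. For each gene the authors deposited 1 FPKM value per cell type, made over its libraries. The spread between libraries could not be measured, and every difference given here is a description without a test. The FGSC libraries held transcripts of embryonic globins, given below with their values, although their label is postnatal.

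PGCs are the fetal founders of the germ line. At the stage sampled, XX PGCs are dividing in the genital ridge, have erased most of their DNA methylation including parental imprints, and are about to enter meiosis. FGSCs are mitotically active germ cells described in the ovary after birth. Adhesion molecules, junctions and ligand-receptor pathways connect germ cells with the somatic cells around them, and glycolysis and mitochondrial respiration are the main routes by which cells make ATP.

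The difference between the cell types was given as the log2 ratio of FPKM + 1, FGSCs over E12.5 PGCs, so that positive values are higher in FGSCs. Adding 1 understates the differences of genes with low FPKM. The median log2 ratio of the 12634 genes was -0.08, with quartiles of -0.85 and 1.00. A ratio of at least 2-fold was found for 3157 genes that were higher (25.0%) and 2620 genes that were lower (20.7%) in FGSCs, and at least 4-fold for 984 higher and 493 lower genes. Of the 12634 genes, 9390 were above 1 FPKM in both cell types, 2233 in FGSCs alone and 1011 in E12.5 PGCs alone. FPKM summed over all listed genes came to 417955 in FGSCs, against 688500 in E12.5 PGCs. When both were scaled to the same sum (TPM), the median log2 ratio moved by 0.65 to 0.57, and 4951 genes (39.2%) were at least 2-fold higher and 1271 (10.1%) lower. The share of higher genes among those past 2-fold was 54.6% as deposited and 79.6% after TPM scaling. Groups of genes were therefore compared with the median of the 12634 genes. The median of a list covers every listed autosomal gene, also those not above 1 FPKM. The median and shares of all genes cover the 12634 genes alone. As deposited, every autosomal gene past 2-fold was among the 12634.

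Among 10 bins of genes by mean FPKM, the median log2 ratio was -0.85 in the bin of the most abundant genes. It was 1.04 in the lowest bin, where a gene passes the threshold mainly through the cell type in which it is high, so that nothing is read from that bin. Among all genes compared, 549 were listed at 0 in E12.5 PGCs and 164 in FGSCs. Each of these passed the threshold through the other cell type alone. The log2 ratio also moved with the base composition of the transcript. For the 11321 protein-coding genes, GC content was taken from the longest annotated transcript. In the 1133 genes of lowest GC content (18.1% to 41.6%) the median log2 ratio was -0.58, and 7.59% were at least 2-fold higher in FGSCs and 30.6% lower. In the 1132 genes of highest GC content (58.0% to 76.5%) the median was 0.98, and 49.4% were at least 2-fold higher and 8.75% lower. Spearman's rho across these genes, which are not independent replicates, was 0.35, and it was 0.30 across the 5608 genes above 5 FPKM in both cell types. The rho with the GC content of the promoter, over 8101 protein-coding genes with a promoter sequence, was 0.05. Among 10 bins by transcript length, that of the shortest transcripts (up to 1333 bases) had a median log2 ratio of -0.67. What part of each difference goes with GC content or length was not tested. For most lists, counts are therefore also given after each protein-coding gene was centred on the median of genes of like GC content and length. This alternative was chosen after seeing the data. Where centred counts are not given, the list is described as deposited only. Centred ratios were at least 2-fold higher for 2157 genes (19.05%) and lower for 1874 genes (16.55%).

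**Figure D1:**
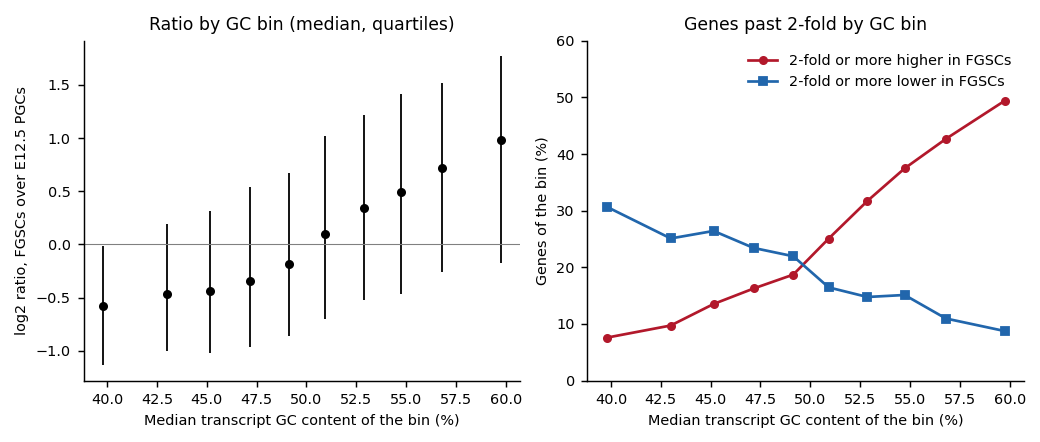
Log2 ratio of FPKM + 1, FGSCs over E12.5 PGCs, in 10 bins of protein-coding genes by transcript GC content. Points are medians and bars run between the quartiles (left), and the share of genes at least 2-fold higher or lower in FGSCs is given for each bin (right). The median goes from -0.58 in the bin of lowest GC content to 0.98 in the bin of highest GC content.

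The median log2 ratio also differed between autosomes, where it lay between -0.40 on chromosome 13 and 0.32 on chromosome 15. The median transcript GC content was 46.6% on chromosome 13 and 52.4% on chromosome 15. After centring, the medians of all autosomes lay between -0.13 (chromosome 17) and 0.11 (chromosome 18).

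The largest differences among well expressed genes were taken from 5745 protein-coding genes with at least 10 FPKM in FGSCs or E12.5 PGCs and at least 0.5 FPKM in the other cell type. Lypla2, which codes for an acyl-protein thioesterase (mm9, chromosome 4, 135524139 to 135528541), was at 58.7 FPKM in FGSCs, against 0.782 in E12.5 PGCs. Ccnd3, the gene of cyclin D3, which promotes entry into S phase (mm9, chromosome 17, 47642000 to 47748441), was at 187 FPKM in FGSCs, against 6.87 in E12.5 PGCs. Pcyt2, an enzyme of phosphatidylethanolamine synthesis, was at 31.9 FPKM in FGSCs, against 0.571 in E12.5 PGCs. These were the top of the order, with log2 ratios of 5.07, 4.58 and 4.39. They were followed by Coro1c (an actin-binding coronin), Med25 (a subunit of Mediator), Fam89b, Ftsjd2 (an mRNA cap methyltransferase, Cmtr1), Tmem184b, Fastk and 2610027L16Rik, with log2 ratios between 3.82 and 4.28. The transcripts of all these 10 genes were above 51% GC, between 51.4% for Coro1c and 61.4% for Lypla2. After centring on GC content and length, their log2 ratios lay between 2.61 and 4.23.

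At the other end, Arglu1, a gene of a splicing-associated protein (mm9, chromosome 8, 8666577 to 8690537), was at 62.8 FPKM in FGSCs, against 960 in E12.5 PGCs. Pfas, an enzyme of purine synthesis (mm9, chromosome 11, 68799199 to 68824788), was at 23.6 FPKM in FGSCs, against 332 in E12.5 PGCs. Abcg1, a transporter of cholesterol, was at 13 FPKM in FGSCs, against 179 in E12.5 PGCs. Their log2 ratios were -3.91, -3.76 and -3.69. Itpripl1, Lyrm4 (a protein of iron-sulfur cluster assembly), Notch2, 4933434E20Rik, Nmt2 (an N-myristoyltransferase), Spry2 and Ccdc6 followed, with log2 ratios between -3.67 and -3.43. After centring on GC content and length, the log2 ratios of these 10 genes lay between -4.15 and -2.68.

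The label of germ cells was checked with their marker genes. Ddx4, the RNA helicase whose promoter drives the Cre that switches on the sorting reporter, was at 59.0 FPKM in FGSCs, against 64.0 in E12.5 PGCs. Dazl, an RNA-binding protein needed for germ cell development, was at 75 FPKM in FGSCs, against 34.2 in E12.5 PGCs. Of 19 listed genes of germ cell identity, 18 were above 1 FPKM, and 5 were at least 2-fold higher and 6 lower in FGSCs, with 5 and 2 after TPM scaling and 4 and 3 after centring. The higher genes were Prdm14 and Tfap2c, transcription factors of PGC specification, with Dnd1, Tex19.1 and Dazl. Dnd1, an RNA-binding protein that protects germ cells, was at 86.3 FPKM in FGSCs, against 31.3 in E12.5 PGCs. Rnf17 was at 13.3 FPKM in FGSCs, against 55.6 in E12.5 PGCs, and Nanos3, a translational repressor needed for PGC survival, was at 17.5 in FGSCs, against 53.3 in E12.5 PGCs. Dppa3 (Stella), a protein of PGCs and early embryos, was at 462 FPKM in FGSCs, against 1288 in E12.5 PGCs. Kit, the receptor of stem cell factor, was at 11.2 FPKM in FGSCs, against 12.1 in E12.5 PGCs.

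Genes of pluripotency did not differ in a common direction. Of 19 listed genes, 4 were at least 2-fold higher and 5 lower in FGSCs. Pou5f1 (Oct4), a core transcription factor of pluripotent and germ cells, was at 60.4 FPKM in FGSCs, against 10.1 in E12.5 PGCs, and Nanog was at 49.8 in FGSCs, against 23.6 in E12.5 PGCs. Sall4, a zinc finger factor of the same network, was at 36.8 FPKM in FGSCs, against 189 in E12.5 PGCs. Dppa5a was at 1041 FPKM in FGSCs, against 4601 in E12.5 PGCs, and Trim71 was at 2.91 in FGSCs, against 15.9 in E12.5 PGCs. Utf1, a chromatin protein of pluripotent cells, was at 395 FPKM in FGSCs, against 434 in E12.5 PGCs.

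Of 20 listed genes used as markers of germline stem cells, 13 were above 1 FPKM, and 2 were at least 2-fold higher and 4 lower, with 2 and 2 after centring. Etv5, a transcription factor that spermatogonial stem cells need for self-renewal, was at 37.4 FPKM in FGSCs, against 8.62 in E12.5 PGCs. Fut4, which makes the SSEA1 epitope, was at 1.05 FPKM in FGSCs and listed at 0 in E12.5 PGCs. It passed the threshold through FGSCs alone, so nothing is read from it, and its centred log2 ratio was 0.16. Ifitm3 (Fragilis), a membrane protein used to isolate FGSCs, was at 222 FPKM in FGSCs, against 626 in E12.5 PGCs, and Ifitm1 was at 626 in FGSCs, against 1479 in E12.5 PGCs. Sdc4, a heparan sulfate proteoglycan, was at 28.8 FPKM in FGSCs, against 149 in E12.5 PGCs. Genes of the piRNA pathway, which silences transposons, had 2 of 19 at least 2-fold higher and 5 lower. Gpat2 was at 15.2 FPKM in FGSCs, against 0.190 in E12.5 PGCs, and Pld6, a mitochondrial nuclease of piRNA biogenesis, at 13.1 in FGSCs, against 0.726 in E12.5 PGCs. Piwil4, the PIWI protein that directs DNA methylation of transposons in male germ cells, was at 0.257 FPKM in FGSCs, against 4.25 in E12.5 PGCs.

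Of 20 listed genes of oocytes, 13 were above 1 FPKM, and 0 were at least 2-fold higher or lower in FGSCs, beside 25.0% and 20.7% of all genes. After centring, 1 was higher and 0 were lower. Their log2 ratios lay between -0.52 and 0.83. Zp3, a protein of the zona pellucida, was at 6.49 FPKM in FGSCs, against 6.80 in E12.5 PGCs, and the oocyte growth factor Gdf9 was at 2.49 in FGSCs, against 2.79 in E12.5 PGCs. Both were under 10 FPKM in each cell type. Sohlh2, a transcription factor of early oocytes, was the most abundant, at 28.4 FPKM in FGSCs, against 26.2 in E12.5 PGCs.

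Genes of other ovarian cells were measured in the same libraries. In bulk RNA, fewer cells of a type and less RNA per cell cannot be told apart. Of 20 listed markers of pregranulosa and granulosa cells, which enclose the oocyte, 16 were above 1 FPKM, and 7 were at least 2-fold higher and 0 lower in FGSCs. Among all genes, 25.0% were higher and 20.7% lower. After centring, 5 markers were higher and 2 lower, beside 19.05% and 16.55% of all genes. The summed FPKM of the list was 367 in FGSCs, against 181 in E12.5 PGCs, and its median log2 ratio lay 0.82 above that of all genes. Gata4, a transcription factor of somatic gonad cells, was at 33.7 FPKM in FGSCs, against 6.30 in E12.5 PGCs, and Nr5a1, a regulator of steroidogenesis, was at 20.2 in FGSCs, against 2.70 in E12.5 PGCs. Amhr2, which binds anti-Mullerian hormone, was at 39.8 FPKM in FGSCs, against 14 in E12.5 PGCs, and Wt1 was at 113 in FGSCs, against 61.3 in E12.5 PGCs. Foxl2, a defining factor of granulosa cells, was at 1.13 FPKM in FGSCs and listed at 0 in E12.5 PGCs, while Amh was listed at 0 in both. Foxl2 passed the threshold through FGSCs alone, so nothing is read from it.

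Of 15 listed endothelial genes, 13 were above 1 FPKM, and 5 were at least 2-fold higher and 0 lower, with 4 and 1 after centring. Among all genes, 25.0% were higher as deposited and 19.05% after centring. For the 13 genes with a mean FPKM over 1, the median log2 ratio was 0.83 as deposited and 0.02 after centring. The summed FPKM of the list was 189 in FGSCs, against 125 in E12.5 PGCs. Plvap, a protein of fenestrated endothelium, was at 35.6 FPKM in FGSCs, against 2.49 in E12.5 PGCs, and Pecam1, which PGCs also express, was at 29.5 in FGSCs, against 20.4 in E12.5 PGCs. Of 15 listed genes of stroma and mesenchyme, 1 was at least 2-fold higher and 4 were lower, with 3 and 5 after centring. Their summed FPKM was 177 in FGSCs, against 254 in E12.5 PGCs. Pdgfra was at 1.56 FPKM in FGSCs, against 5.34 in E12.5 PGCs. Of 15 leukocyte genes, 4 were at least 2-fold higher and 4 lower, and Ptprc, the common leukocyte antigen, was at 0.0757 FPKM in FGSCs and listed at 0 in E12.5 PGCs. Of 15 erythroid genes, 3 were at least 2-fold higher and 3 lower, and the summed FPKM was 7707 in FGSCs, against 18182 in E12.5 PGCs. Hbb-y, a globin of primitive erythrocytes in the embryo, was at 3273 FPKM in FGSCs, against 3378 in E12.5 PGCs, although the FGSCs were taken after birth. Hba-x, the embryonic alpha-like globin, was at 1599 FPKM in FGSCs, against 10452 in E12.5 PGCs. The part of these cells in the differences given here was not tested.

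As deposited, genes of the synaptonemal complex, the protein axis that joins homologous chromosomes in meiosis, had lower values in FGSCs as a list. Of 11 listed genes, 9 were above 1 FPKM, and 1 was at least 2-fold higher and 4 were lower, beside 25.0% and 20.7% of all genes. The median log2 ratio of the list lay 0.83 below that of all genes. Syce2, a protein of the central element, was at 129 FPKM in FGSCs, against 571 in E12.5 PGCs. Tex12, its partner, was at 6.11 FPKM in FGSCs, against 18.4 in E12.5 PGCs, and 4930447C04Rik (Six6os1), another central element protein, was at 5.58 in FGSCs, against 20.6 in E12.5 PGCs. Sycp3, a component of the axis, was at 9.30 FPKM in FGSCs, against 21.6 in E12.5 PGCs, and Hormad1 was at 31.9 in FGSCs, against 53.3 in E12.5 PGCs. The exception past 2-fold was Syce3, at 3.25 FPKM in FGSCs, against 0.0943 in E12.5 PGCs. The transcripts of the list had a median GC content of 35.8%, in the range of the lowest bin. After centring, 1 gene was at least 2-fold higher and 1 lower, beside 19.05% and 16.55% of all genes. For the 9 genes with a mean FPKM over 1, the median log2 ratio was -0.97 as deposited and -0.36 after centring.

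The promoters of these genes are shown because 5 of the 11 (Sycp3, 4930447C04Rik, Sycp1, Hormad1 and Tex12) held the E-box CACGTG, a palindrome bound by basic helix-loop-helix factors, between 250 bases before and 50 after the start. The same window held it in 7.24% of 27025 promoters of RefSeq (GRCm38.p6) and in 10.4% of 8412 promoters of the autosomal genes compared. It was found in 9.46% of 2124 promoters of genes at least 2-fold higher in FGSCs and in 8.76% of 1644 promoters of genes at least 2-fold lower. The E-box was not particular to this list. Germ cell identity genes held it in 6 of 13 promoters, Sycp3 and Hormad1 among them, and piRNA pathway genes in 7 of 16. The 150 bases before the start are given 5′ to 3′ with the E-box in capitals. They lie at chr10:88459437-88459586 on the plus strand (Sycp3), chr3:95559527-95559676 on the plus strand (Hormad1), chr3:102936101-102936250 on the minus strand (Sycp1) and chr9:50561269-50561418 on the minus strand (Tex12).
Sycp3: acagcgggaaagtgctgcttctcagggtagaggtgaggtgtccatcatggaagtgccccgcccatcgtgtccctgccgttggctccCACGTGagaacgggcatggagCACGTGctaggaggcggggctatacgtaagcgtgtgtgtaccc
Hormad1: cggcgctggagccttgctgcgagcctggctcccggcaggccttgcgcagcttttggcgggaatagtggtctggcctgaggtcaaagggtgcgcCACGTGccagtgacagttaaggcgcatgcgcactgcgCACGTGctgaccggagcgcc
Sycp1: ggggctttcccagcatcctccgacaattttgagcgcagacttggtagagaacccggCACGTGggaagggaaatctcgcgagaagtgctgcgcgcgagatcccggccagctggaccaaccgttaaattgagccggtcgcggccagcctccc
Tex12: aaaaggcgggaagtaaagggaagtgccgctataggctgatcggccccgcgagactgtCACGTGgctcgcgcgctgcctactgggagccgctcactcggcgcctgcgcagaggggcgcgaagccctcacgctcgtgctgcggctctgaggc
The E-box stood 2 times in the stretches of Sycp3 and Hormad1 and 1 time in those of Sycp1 and Tex12. Of these genes, Hormad1 and Sycp1 differed by less than 2-fold between the cell types. A match of letters is a description and not a site of binding.

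Other steps of meiosis differed gene by gene. Stra8, the gatekeeper of meiotic entry, was listed at 0 in FGSCs and at 0.0200 FPKM in E12.5 PGCs. Of 10 listed genes of meiotic entry and cohesin, 6 were above 1 FPKM, and 1 was at least 2-fold higher and 0 were lower. This was Rec8, the meiotic cohesin subunit, at 14.1 FPKM in FGSCs, against 0.813 in E12.5 PGCs. Dmrt1, a regulator of meiotic entry, was at 22.8 FPKM in FGSCs, against 19.2 in E12.5 PGCs, and the cohesin subunit Stag3 was at 22.8 in FGSCs, against 16.6 in E12.5 PGCs. Of 25 listed genes of meiotic recombination, 17 were above 1 FPKM, and 2 were at least 2-fold higher and 3 lower. Rad51c was at 8.71 FPKM in FGSCs, against 1.04 in E12.5 PGCs, and Dmc1, the meiotic recombinase, was at 2.04 in FGSCs and listed at 0 in E12.5 PGCs. Psmc3ip, an activator of that recombinase, was at 26.7 FPKM in FGSCs, against 88.1 in E12.5 PGCs. Prdm9, which marks hotspots of recombination, was at 2.03 FPKM in FGSCs, against 7.16 in E12.5 PGCs, and Spo11, which makes the breaks, was at 1.95 in FGSCs, against 5.27 in E12.5 PGCs.

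**Figure D2:**
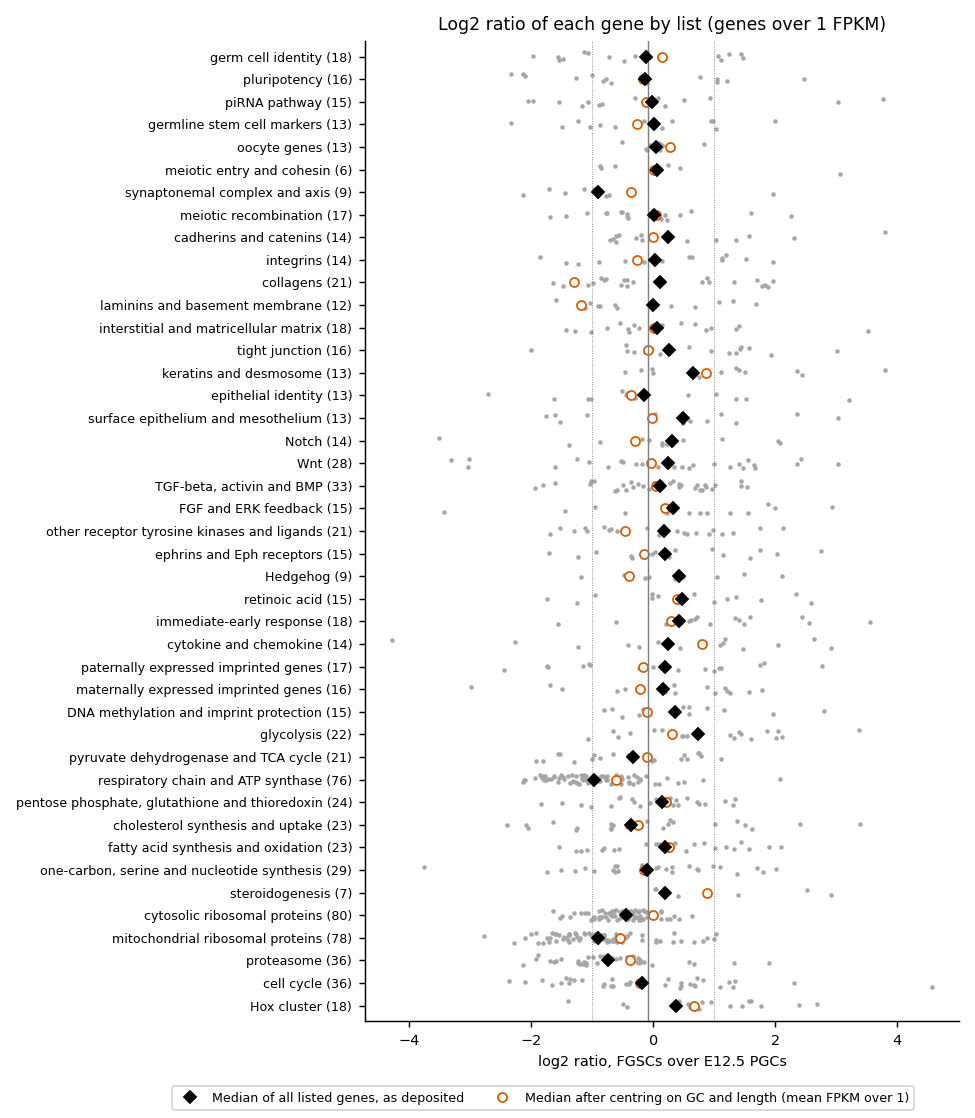
Log2 ratio of FPKM + 1, FGSCs over E12.5 PGCs, for the genes of each list except those of markers of other cell types, with the number of genes above 1 FPKM in parentheses. Grey points are these genes, diamonds the median of all listed genes, open circles the median after centring on GC content and length for protein-coding genes with a mean FPKM over 1, the grey line the median of all 12634 genes (-0.08), and dotted lines 2-fold. Of the diamonds plotted, those of the respiratory chain, of mitochondrial ribosomal proteins and of the synaptonemal complex lie farthest to the left, and those of glycolysis and of keratins and the desmosome farthest to the right.

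Among genes of adhesion, those of the adherens junction differed gene by gene. Of 17 listed cadherins, catenins and nectins, 14 were above 1 FPKM, and 5 were at least 2-fold higher and 0 lower in FGSCs. After centring, 3 were higher and 1 was lower. Of all genes, 25.0% were higher and 20.7% lower as deposited, and 19.05% and 16.55% after centring. Of the 14, 6 lay above the median of all genes and 8 below it. Jup (plakoglobin), a catenin shared by adherens junctions and desmosomes, was at 20.3 FPKM in FGSCs, against 0.528 in E12.5 PGCs. Pvrl2 (nectin 2), an immunoglobulin-like adhesion receptor, was at 58.6 FPKM in FGSCs, against 11.1 in E12.5 PGCs. Cdh3 (P-cadherin) was at 11.5 FPKM in FGSCs, against 3.22 in E12.5 PGCs, and Cdh1 (E-cadherin), chosen after its values were seen, was at 3.19 in FGSCs, against 1.05 in E12.5 PGCs. The catenin genes Ctnnb1 and Ctnna1 differed by less than 2-fold. Ctnnb1 (beta-catenin) was at 52.7 FPKM in FGSCs, against 59.9 in E12.5 PGCs, and Ctnna1 (alpha-catenin) was at 44.2 in FGSCs, against 70.1 in E12.5 PGCs.

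Of 21 listed integrins and proteins of focal adhesions, 14 were above 1 FPKM, and 5 were at least 2-fold higher and 3 lower. The 3 lower ones were integrin alpha chains, Itga9 at 2.34 FPKM in FGSCs, against 11.1 in E12.5 PGCs, Itgav at 4.71 in FGSCs, against 14.4 in E12.5 PGCs, and Itga8 at 3.92 in FGSCs, against 10.6 in E12.5 PGCs. Among the higher ones were cytoplasmic proteins of the focal adhesion. Ilk, the integrin-linked kinase, was at 75 FPKM in FGSCs, against 32.4 in E12.5 PGCs, Zyx (zyxin) at 33.4 in FGSCs, against 11.1 in E12.5 PGCs, and Pxn (paxillin) at 5.39 in FGSCs, against 0.642 in E12.5 PGCs. Itga6, the most abundant alpha chain and a laminin receptor, was at 70.5 FPKM in FGSCs, against 78.9 in E12.5 PGCs.

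The counts of matrix genes moved with the centring on GC content and length. Of 42 listed collagens, 21 were above 1 FPKM, with a median GC content of 57.7%, and 6 were at least 2-fold higher and 3 lower in FGSCs. After centring, 1 was higher and 11 were lower, and after TPM scaling 13 were higher and 2 lower. The fibrillar collagens Col1a1 and Col3a1 were at 28.8 and 23.6 FPKM in FGSCs, against 52.8 and 50.7 in E12.5 PGCs. Of 16 listed genes of laminins and the basement membrane, 3 were at least 2-fold higher and 3 lower, with 1 and 6 after centring. Sparc, a collagen-binding protein, was at 139 FPKM in FGSCs, against 65.3 in E12.5 PGCs, and Nid2 (nidogen 2) was at 23.7 in FGSCs, against 6.65 in E12.5 PGCs. The laminin chains Lamb1 and Lamc1 were at 6.64 and 7.06 FPKM in FGSCs, against 15.6 for each in E12.5 PGCs. Of 25 other matrix genes, 3 were at least 2-fold higher and 3 lower. Mmp14, a membrane-bound matrix metalloproteinase, was at 21 FPKM in FGSCs, against 0.913 in E12.5 PGCs. Its inhibitor Timp3 was at 6.59 FPKM in FGSCs, against 1.85 in E12.5 PGCs, and Sdc1 (syndecan 1) was at 31.9 in FGSCs, against 11.8 in E12.5 PGCs. Fbn1 (fibrillin 1) was at 1.04 FPKM in FGSCs, against 4.49 in E12.5 PGCs.

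As a list, keratins and desmosomal genes had higher values in FGSCs, and the regulators of epithelial identity did not share a direction. Of 18 listed keratins and desmosomal genes, 13 were above 1 FPKM, and 7 were at least 2-fold higher and 0 lower. These counts were 6 and 0 after centring and 10 and 0 after TPM scaling. Of all genes, 25.0% were higher and 20.7% lower as deposited, and 39.2% and 10.1% after TPM scaling. After centring, 19.05% of all genes were higher and 16.55% lower. The median log2 ratio of the list lay 0.73 above that of all genes. Krt8 and Krt18, which pair in the filaments of simple epithelia, were at 30.1 and 41.2 FPKM in FGSCs, against 11.2 and 18.5 in E12.5 PGCs. Krt7 was at 10.8 FPKM in FGSCs, against 1.29 in E12.5 PGCs, and Pkp2 (plakophilin 2), a plaque protein of desmosomes, was at 14.8 in FGSCs, against 1.92 in E12.5 PGCs. Krt19 was at 18.8 FPKM in FGSCs, against 19 in E12.5 PGCs, and the desmosomal plaque gene Dsp at 1.39 in FGSCs, against 1.40 in E12.5 PGCs. Krt7, Krt18 and Krt19 are also on the list of the ovarian surface epithelium and mesothelium, of which 4 of 15 genes were at least 2-fold higher and 4 lower. The summed FPKM of that list was 309 in FGSCs, against 222 in E12.5 PGCs, and its part was not tested.

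Promoters were found for 8 of the 18 genes, and 5 of them (Krt7, Krt8, Krt18, Krt5 and Dsp) held the E2-box CACCTG on either strand, a sequence bound by Snail and ZEB repressors of epithelial genes. It was present in 20.0% of all promoters, in 18.6% of those of genes at least 2-fold higher in FGSCs and in 17.9% of those of genes at least 2-fold lower. The E2-box was not particular to this list. Oocyte genes, with 0 past 2-fold as deposited, held it in 9 of 13 promoters. Epithelial identity genes, with 4 higher and 4 lower, held it in 7 of 11. Krt5 was listed at 0 in both cell types. The promoters of Krt7 (chr15:101412253-101412402, plus strand) and Krt8 (chr15:102004343-102004492, minus strand) are printed like those above, with the E2-box in capitals.
Krt7: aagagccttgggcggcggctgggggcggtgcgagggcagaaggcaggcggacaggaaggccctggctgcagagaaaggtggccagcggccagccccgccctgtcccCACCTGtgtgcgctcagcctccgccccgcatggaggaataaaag
Krt8: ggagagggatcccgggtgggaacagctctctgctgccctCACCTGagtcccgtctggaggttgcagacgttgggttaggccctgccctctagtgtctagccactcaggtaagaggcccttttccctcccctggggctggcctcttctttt
The AP-1 sequence TGACTCA, searched on both strands, was found in 0 of the 8 promoters and in 5.17% of all promoters.

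Of 22 listed genes of the tight junction and apical polarity, 16 were above 1 FPKM, and 7 were at least 2-fold higher and 1 was lower. After centring, 5 were higher and 2 lower. For the 14 genes with a mean FPKM over 1, the median log2 ratio was 0.35 as deposited and -0.09 after centring. Crb3, an apical polarity protein, was at 8.95 FPKM in FGSCs, against 0.236 in E12.5 PGCs, and Cldn11 (claudin 11) at 4.0 in FGSCs, against 0.320 in E12.5 PGCs. F11r (JAM-A), an adhesion molecule of the tight junction, was at 82.1 FPKM in FGSCs, against 42.0 in E12.5 PGCs. The lower gene was Cgn (cingulin), a cytoplasmic plaque protein, at 15.9 FPKM in FGSCs, against 66.9 in E12.5 PGCs. Of 18 listed genes of epithelial identity, 4 were at least 2-fold higher and 4 lower, with 2 and 4 after centring. Elf3, an epithelial transcription factor, was at 10.4 FPKM in FGSCs, against 0.234 in E12.5 PGCs, and the splicing regulator Esrp2 was at 2.37 in FGSCs, against 0.323 in E12.5 PGCs. Epcam, a surface protein of epithelia and of germ cells, was at 53.5 FPKM in FGSCs, against 114 in E12.5 PGCs. Rab25, a GTPase of epithelial recycling, was at 0.0721 FPKM in FGSCs, against 6.01 in E12.5 PGCs, and Ovol2 was at 2.16 in FGSCs, against 8.77 in E12.5 PGCs.

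In Wnt signalling, receptors of R-spondin and their antagonists differed in both directions. Of 36 listed genes, 28 were above 1 FPKM, and 9 were at least 2-fold higher and 6 lower in FGSCs. After centring, 4 were higher and 11 lower, and after TPM scaling 16 were higher and 5 lower. The ligand Rspo1 was at 10.0 FPKM in FGSCs, against 1.05 in E12.5 PGCs. Its receptor Lgr5 was at 7.73 FPKM in FGSCs, against 0.0681 in E12.5 PGCs, whereas the related receptor Lgr4 was at 9.97 in FGSCs, against 89.6 in E12.5 PGCs. Znrf3, a ubiquitin ligase that removes Wnt receptors and is blocked by R-spondin, was at 3.75 FPKM in FGSCs, against 37.6 in E12.5 PGCs. Tcf7l2, a transcription factor at the end of the pathway, was at 47.7 FPKM in FGSCs, against 487 in E12.5 PGCs, the highest value of the list. Nkd1, an inhibitor induced by the pathway, was at 18.7 FPKM in FGSCs, against 2.84 in E12.5 PGCs. Rspo1 and Lgr5 are also on the list of pregranulosa genes.

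Of 21 listed Notch genes, 14 were above 1 FPKM, and 3 were at least 2-fold higher and 2 lower, with 1 and 4 after centring. The receptor Notch2 was at 3.59 FPKM in FGSCs, against 51.8 in E12.5 PGCs, and the ligand Jag1 was at 0.531 in FGSCs, against 2.99 in E12.5 PGCs. Rfng, a glycosyltransferase that modifies Notch receptors, was at 13.6 FPKM in FGSCs, against 2.44 in E12.5 PGCs. The target Hes5 was at 3.12 FPKM in FGSCs and listed at 0 in E12.5 PGCs, and the target Hey1 was at 31.8 in FGSCs, against 28.8 in E12.5 PGCs.

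Of 21 listed genes of FGF signalling and ERK feedback, 15 were above 1 FPKM, and 5 were at least 2-fold higher and 2 lower, with 3 and 2 after centring. The receptor Fgfr1 (ENSMUSG00000031565, which shares its position with another identifier of the same name) was at 14.3 FPKM in FGSCs, against 1.00 in E12.5 PGCs. The feedback inhibitors differed in direction, with Spry2 at 15.4 FPKM in FGSCs, against 176 in E12.5 PGCs, and Spry4 at 2.81 in FGSCs, against 0.0363 in E12.5 PGCs. Etv5, given above, is a target of this pathway. The ligand Fgf9 was at 0.933 FPKM in FGSCs, against 4.30 in E12.5 PGCs.

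Of 43 listed genes of TGF-beta, activin and BMP signalling, 33 were above 1 FPKM, and 4 were at least 2-fold higher and 5 lower, with 6 and 7 after centring. The BMP targets Id3 and Id1 were at 323 and 122 FPKM in FGSCs, against 185 and 73.2 in E12.5 PGCs, under 2-fold. The receptor Bmpr1b was at 0.236 FPKM in FGSCs, against 3.73 in E12.5 PGCs, and the inhibitory Smad7 was at 2.10 in FGSCs, against 8.48 in E12.5 PGCs. Inhba, the subunit of activin A, was at 3.15 FPKM in FGSCs, against 0.438 in E12.5 PGCs. Nodal was at 1.72 FPKM in FGSCs and listed at 0 in E12.5 PGCs. Of 31 listed genes of other receptor tyrosine kinases and their ligands, 4 were at least 2-fold higher and 5 lower, with 1 and 5 after centring. Ddr1, a collagen receptor, was at 4.36 FPKM in FGSCs, against 0.234 in E12.5 PGCs, and Flt4, a receptor of VEGF-C, was at 0.547 in FGSCs, against 3.46 in E12.5 PGCs. The ligand Pdgfa was at 30.6 FPKM in FGSCs, against 66.3 in E12.5 PGCs.

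Retinoic acid induces meiotic entry in the fetal ovary. Of 19 listed genes of its synthesis, breakdown and reception, 15 were above 1 FPKM, and 5 were at least 2-fold higher and 2 lower, with 3 and 3 after centring, and the median log2 ratio of the list lay 0.55 above that of all genes. The nuclear receptors Rarg, Rarb and Rxra were at 5.22, 4.06 and 3.05 FPKM in FGSCs. In E12.5 PGCs, Rarg was at 0.0353 FPKM, Rarb was listed at 0 and Rxra was at 0.198. Cyp26b1, which degrades retinoic acid, was at 0.0657 FPKM in FGSCs, against 1.53 in E12.5 PGCs. Dhrs3, a retinal reductase, was at 39.0 FPKM in FGSCs, against 133 in E12.5 PGCs, and the binding protein Crabp1 was at 42.1 in FGSCs, against 26.1 in E12.5 PGCs.

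Of 21 listed ephrins and Eph receptors, which signal by cell contact, 5 were at least 2-fold higher and 2 lower, with 3 and 3 after centring. Ephb4 was at 7.39 FPKM in FGSCs, against 0.253 in E12.5 PGCs, and its ligand Efnb2 was at 1.43 in FGSCs, against 6.95 in E12.5 PGCs. Of 14 listed Hedgehog genes, 3 were at least 2-fold higher and 1 was lower, with 1 and 2 after centring. The median of the list lay 0.51 above that of all genes but below it after centring. Gli2 was at 4.99 FPKM in FGSCs, against 0.383 in E12.5 PGCs, and Gli3 was at 2.91 in FGSCs, against 7.86 in E12.5 PGCs. These are transcription factors of the same pathway with values on opposite sides.

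Immediate-early genes are also induced when tissue is dissociated. Of 28 listed genes, 18 were above 1 FPKM. Of these 18, 7 were at least 2-fold higher and 1 was lower, with 3 and 1 after centring. Among all genes above 1 FPKM, 25.0% were higher as deposited and 19.05% after centring. The median of all 28 listed genes lay 0.51 above that of the 12634 genes. Cebpd was at 18.8 FPKM in FGSCs, against 0.681 in E12.5 PGCs, Ier3 at 11.9 in FGSCs, against 1.21 in E12.5 PGCs, and Zfp36, which destabilises cytokine mRNA, at 8.27 in FGSCs, against 0.706 in E12.5 PGCs. Fosl2 was at 0.436 FPKM in FGSCs, against 3.25 in E12.5 PGCs. Of 22 listed genes of cytokine and chemokine signalling, 7 were at least 2-fold higher and 3 lower. The higher genes included Stat3, at 6.19 FPKM in FGSCs, against 0.741 in E12.5 PGCs, and the feedback inhibitor Socs1, at 8.80 in FGSCs, against 0.301 in E12.5 PGCs. The 3 lower ones were chemokines. Ccl2 was at 0.0706 FPKM in FGSCs, against 19.9 in E12.5 PGCs, Ccl7 was listed at 0 in FGSCs, against at 3.82 in E12.5 PGCs, and Cxcl1 was at 0.0359 in FGSCs, against 1.43 in E12.5 PGCs.

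**Figure D3:**
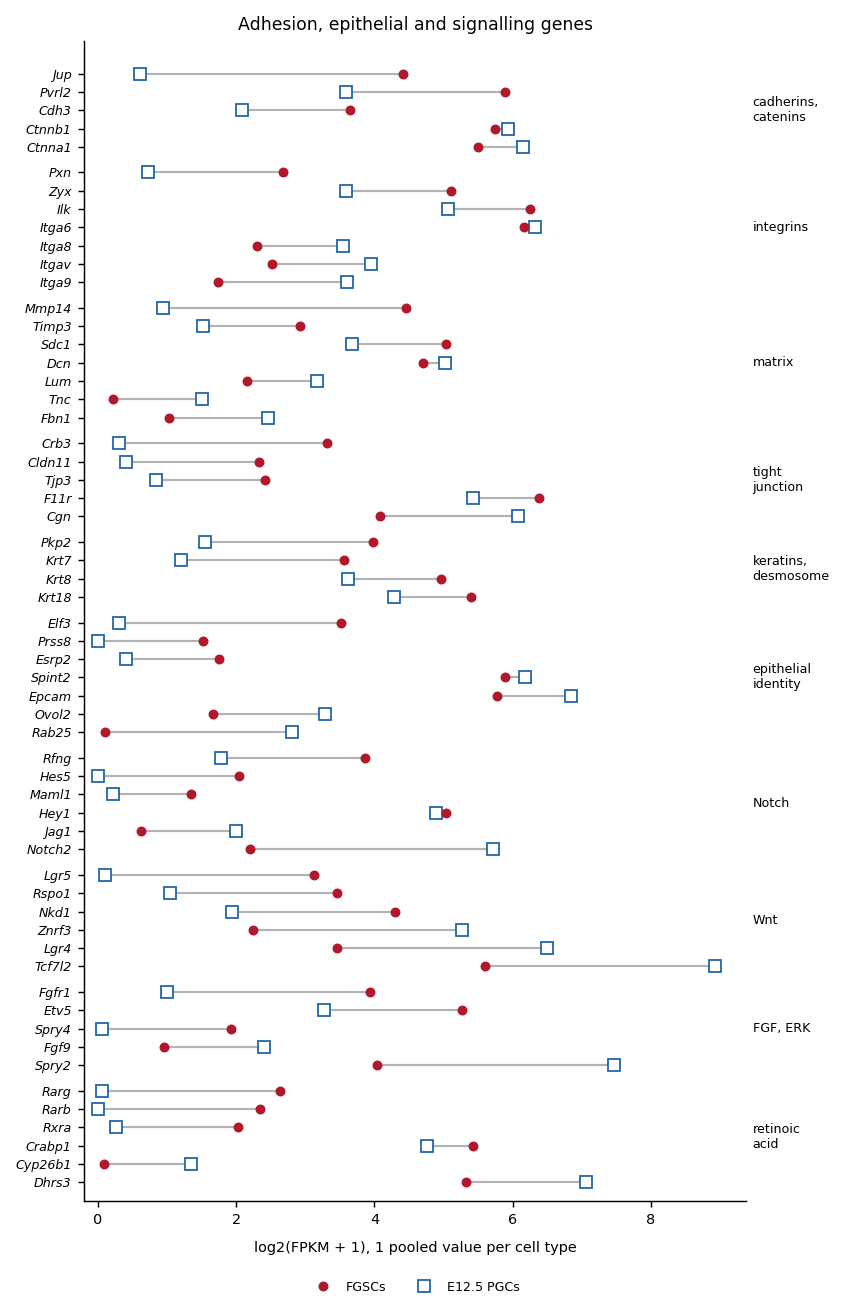
Pooled FPKM of named genes of adhesion, epithelium and signalling on a log2(FPKM + 1) scale, with FGSCs as filled circles and E12.5 PGCs as open squares. Cytokine and immediate-early genes are not plotted. Of the genes plotted, the longest lines to the right of the squares belong to Jup (20.3 FPKM in FGSCs, against 0.528 in E12.5 PGCs) and Mmp14, and the longest to their left to Notch2, Spry2 and Tcf7l2 (47.7 FPKM in FGSCs, against 487 in E12.5 PGCs).

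Imprinted genes are expressed from the copy of 1 parent, and their methylation marks are erased in PGCs and set anew in growing oocytes. Of 25 listed genes expressed from the paternal copy in somatic tissue, 17 were above 1 FPKM, and 5 were at least 2-fold higher and 6 lower in FGSCs. After TPM scaling 10 were higher and 3 lower, and after centring 4 were higher and 3 lower. Mest, a hydrolase-like protein, was at 335 FPKM in FGSCs, against 48.6 in E12.5 PGCs. Igf2, the fetal growth factor, was at 249 FPKM in FGSCs, against 73.4 in E12.5 PGCs, Nnat (neuronatin) was at 128 in FGSCs, against 35.6 in E12.5 PGCs, and the zinc finger gene Peg3 was at 94.8 in FGSCs, against 43.3 in E12.5 PGCs. On the other side, Peg12 was at 19.2 FPKM in FGSCs, against 110 in E12.5 PGCs, Impact at 8.66 in FGSCs, against 31.3 in E12.5 PGCs, and Inpp5f at 5.39 in FGSCs, against 20.3 in E12.5 PGCs. Snrpn, a splicing protein gene of the same imprinted cluster as Peg12, was at 50.7 FPKM in FGSCs, against 106 in E12.5 PGCs.

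Of 22 listed genes expressed from the maternal copy, 16 were above 1 FPKM, and 6 were at least 2-fold higher and 3 lower. After centring, which covers the 12 protein-coding ones, 0 were higher and 3 lower. Phlda2, which limits placental growth, was at 281 FPKM in FGSCs, against 2241 in E12.5 PGCs, the largest difference of both lists. Slc22a18, its neighbour in the same imprinted cluster, was at 4.71 FPKM in FGSCs, against 15.0 in E12.5 PGCs, while Cdkn1c, a cell cycle inhibitor of that cluster, was at 229 in FGSCs, against 182 in E12.5 PGCs. The noncoding RNA genes H19 and Meg3 were at 219 and 114 FPKM in FGSCs, against 108 and 32.5 in E12.5 PGCs. H19 and Igf2, which share an imprinting control region and are expressed from opposite parental copies, were thus both higher in FGSCs. Igf2r, a receptor that removes IGF2, was at 3.27 FPKM in FGSCs, against 12.9 in E12.5 PGCs. The files hold no allelic counts, so the parental copy in use was not measured.

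**Figure D4:**
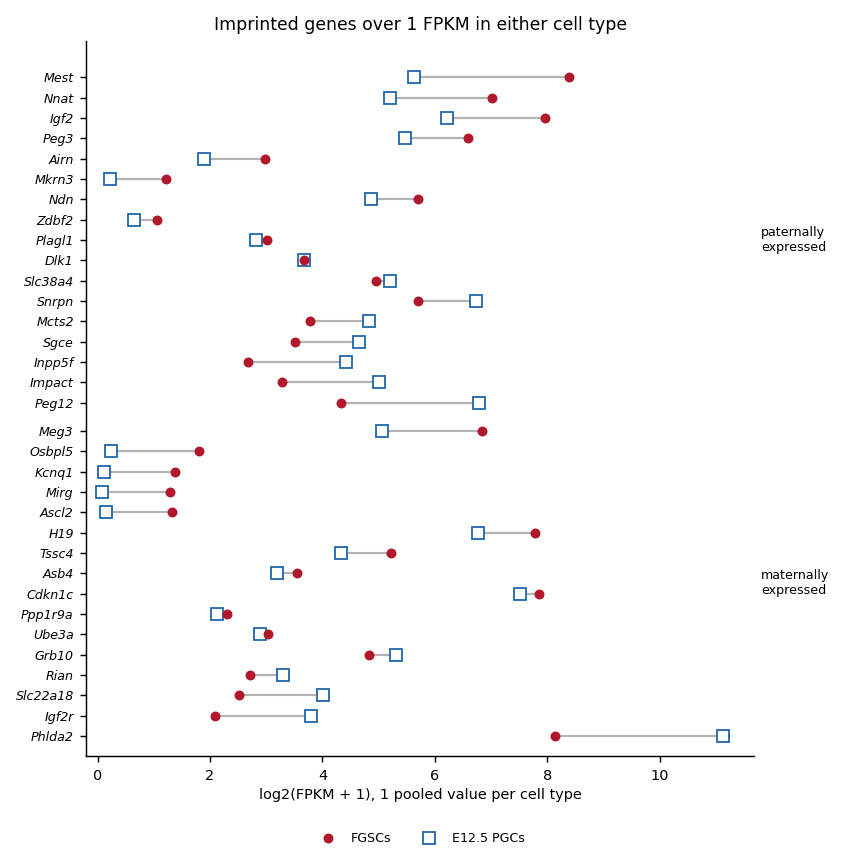
Pooled FPKM of the 17 paternally and 16 maternally expressed imprinted genes above 1 FPKM in either cell type, on a log2(FPKM + 1) scale, with FGSCs as filled circles and E12.5 PGCs as open squares. Mest (335 FPKM in FGSCs, against 48.6 in E12.5 PGCs) and Phlda2 (281 FPKM in FGSCs, against 2241 in E12.5 PGCs) have the longest lines.

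Of 16 listed genes of DNA methylation and imprint protection, 15 were above 1 FPKM, and 3 were at least 2-fold higher and 0 lower, with 2 and 2 after centring. Uhrf1, which brings the maintenance methyltransferase to replicated DNA, was at 18.0 FPKM in FGSCs, against 1.73 in E12.5 PGCs. Dnmt3a, a de novo methyltransferase, was at 80.9 FPKM in FGSCs, against 35.6 in E12.5 PGCs, and the methyl-binding gene Mbd1 was at 8.37 in FGSCs, against 1.40 in E12.5 PGCs. Trim28, a corepressor that protects imprints, was at 102 FPKM in FGSCs, against 146 in E12.5 PGCs.

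In metabolism, genes of glycolysis had higher and nuclear genes of the mitochondrial respiratory chain lower values in FGSCs as deposited. Of 22 glycolytic genes, all above 1 FPKM, 10 were at least 2-fold higher and 1 was lower, beside 25.0% and 20.7% of all genes. After centring, 5 were higher and 1 was lower, beside 19.05% and 16.55%. The median log2 ratio of the list lay 0.82 above that of all genes. For the 20 genes with a mean FPKM over 1, the median was 0.98 as deposited and 0.30 after centring. Slc2a1, the glucose transporter GLUT1, was at 25.3 FPKM in FGSCs, against 5.07 in E12.5 PGCs, and Slc16a3, a transporter that exports lactate, was at 12.5 in FGSCs, against 0.298 in E12.5 PGCs. Pdk1, the kinase that inhibits pyruvate dehydrogenase, was at 37.3 FPKM in FGSCs, against 8.31 in E12.5 PGCs. Pkm2, the gene of pyruvate kinase, was at 677 FPKM in FGSCs, against 256 in E12.5 PGCs. The subunits of lactate dehydrogenase lay on opposite sides, with Ldha, chosen after its values were seen, at 187 FPKM in FGSCs, against 50.3 in E12.5 PGCs, and Ldhb, the 1 lower gene, at 604 in FGSCs, against 1275 in E12.5 PGCs.

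Of 77 listed genes of the respiratory chain and ATP synthase, 76 were above 1 FPKM, and 1 was at least 2-fold higher and 37 were lower, beside 25.0% and 20.7% of all genes. The median log2 ratio of the list lay 0.90 below that of all genes, and 69 of the 76 genes lay below it. After centring 1 gene was at least 2-fold higher and 22 were lower, and after TPM scaling 4 were higher and 12 lower. Of 34 genes of complex I, 21 were at least 2-fold lower, as were 6 of 12 of complex III, 4 of 11 of complex IV and 5 of 19 of ATP synthase, the last near the 20.7% of all genes. The centred median log2 ratio was -0.68 for complex I, -0.65 for complex III, -0.65 for complex IV and 0.01 for ATP synthase. Ndufb8 and Ndufc1 of complex I were at 306 and 145 FPKM in FGSCs, against 1316 and 639 in E12.5 PGCs. Cox7c of complex IV was at 734 FPKM in FGSCs, against 3207 in E12.5 PGCs, and Atp5g1 of ATP synthase was at 620 in FGSCs, against 1594 in E12.5 PGCs. The exception was Atp5sl, a factor named after ATP synthase and counted with it by that name, at 28.0 FPKM in FGSCs, against 5.86 in E12.5 PGCs. These transcripts are short, with a median length of 1088 bases, in the range of the shortest bin, whose median log2 ratio was -0.67. Of the 13 protein genes of the mitochondrial genome, which were not among the autosomal genes, 0 were at least 2-fold higher and 5 were lower.

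Of 78 mitochondrial ribosomal protein genes, 1 was at least 2-fold higher and 34 were lower, with 2 and 22 after centring. The median of the list lay 0.83 below that of all genes. Mrpl42 was at 260 FPKM in FGSCs, against 1780 in E12.5 PGCs, and Mrpl45 at 55.8 in FGSCs, against 244 in E12.5 PGCs. Of 21 genes of pyruvate dehydrogenase and the TCA cycle, 1 was at least 2-fold higher and 6 were lower. After TPM scaling 7 were higher and 2 lower, and after centring 0 were higher and 3 lower. The median of the list lay 0.25 below that of all genes as deposited and 0.20 below it after TPM scaling. The 6 included Sucla2 at 53.7 FPKM in FGSCs, against 206 in E12.5 PGCs, Sdhb, a subunit of complex II, at 162 in FGSCs, against 572 in E12.5 PGCs, and Mdh2 at 423 in FGSCs, against 1252 in E12.5 PGCs.

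**Figure D5:**
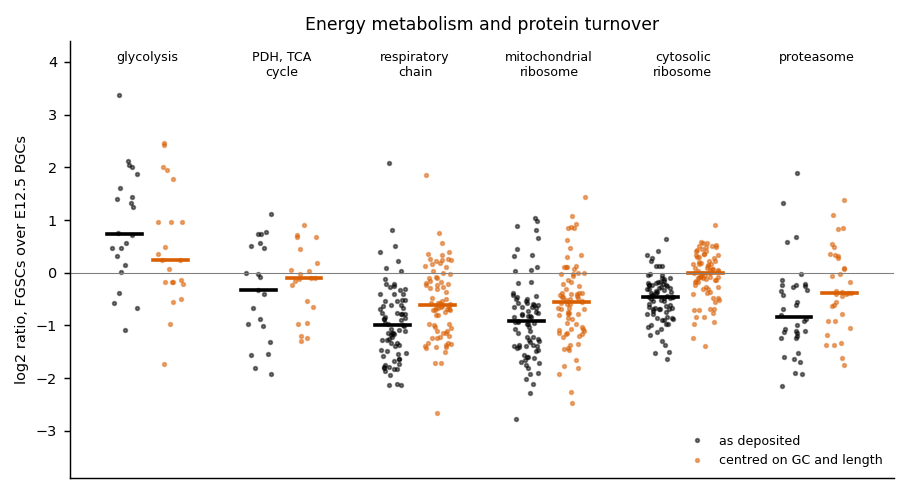
Log2 ratio of FPKM + 1, FGSCs over E12.5 PGCs, of each gene above 1 FPKM in 6 lists, as deposited (black) and centred on GC content and length (orange), with bars at the medians. Black points of the respiratory chain and the mitochondrial ribosome lie mostly below 0, those of glycolysis mostly above 0, and the orange bar of cytosolic ribosomal proteins lies near 0.

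Lipid and nucleotide pathways held differences in both directions. Of 23 listed genes of cholesterol synthesis and uptake, 6 were at least 2-fold higher and 6 lower, with 3 and 8 after centring. Insig1, a sterol-regulated protein that restrains the pathway, was at 22.3 FPKM in FGSCs, against 123 in E12.5 PGCs. Scarb1, a receptor of high density lipoprotein, was at 22.8 FPKM in FGSCs, against 1.27 in E12.5 PGCs, and Mvk (mevalonate kinase) was at 11.6 in FGSCs, against 1.40 in E12.5 PGCs. Of 23 listed genes of fatty acid metabolism, 7 were at least 2-fold higher and 4 lower. Acly, which supplies acetyl-CoA in the cytosol, was at 27.1 FPKM in FGSCs, against 8.50 in E12.5 PGCs, and Acadm, an enzyme of beta-oxidation, was at 41.3 in FGSCs, against 89.1 in E12.5 PGCs.

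Of 29 listed genes of one-carbon, serine and nucleotide synthesis, 5 were at least 2-fold higher and 5 lower, with 4 and 4 after centring. Within purine synthesis Pfas, given above, was lower, and Atic, which completes the purine ring, was at 7.46 FPKM in FGSCs, against 1.11 in E12.5 PGCs. Phgdh, the first enzyme of serine synthesis, was at 51.7 FPKM in FGSCs, against 15.1 in E12.5 PGCs, and Tyms, which makes thymidylate, was at 92.1 in FGSCs, against 264 in E12.5 PGCs. Of 24 listed genes of the pentose phosphate pathway, glutathione and thioredoxin, 3 were at least 2-fold higher and 4 lower. Tkt (transketolase) and Pgd of the pentose phosphate pathway were at 113 and 33.3 FPKM in FGSCs, against 44.1 and 12.9 in E12.5 PGCs. The superoxide dismutases Sod1 and Sod2 were at 659 and 22.7 FPKM in FGSCs, against 2359 and 66.2 in E12.5 PGCs. Of 15 listed genes of steroidogenesis, 7 were above 1 FPKM and 3 were at least 2-fold higher, namely Nr5a1 (given above), Fdxr and Esr1. Fdxr, which passes electrons to mitochondrial cytochromes P450, was at 10.2 FPKM in FGSCs, against 0.489 in E12.5 PGCs.

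Of 83 listed cytosolic ribosomal protein genes, many of which have near copies so that their values are uncertain, 0 were at least 2-fold higher and 9 were lower. The median log2 ratio of the list lay 0.36 below that of all genes as deposited and 0.30 below it after TPM scaling. After centring, 0 were at least 2-fold higher and 2 lower. Of 38 listed proteasome genes, 2 were at least 2-fold higher and 15 lower, with 2 and 7 after centring and 4 and 3 after TPM scaling. The median of the list lay 0.66 below that of all genes as deposited and 0.67 below it after TPM scaling. Psmb6, a catalytic subunit, was at 595 FPKM in FGSCs, against 1845 in E12.5 PGCs, and Psmd3, a subunit of the lid, was at 65.1 in FGSCs, against 16.7 in E12.5 PGCs.

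Of 38 listed genes of the cell cycle, 6 were at least 2-fold higher and 10 lower, with 14 and 4 after TPM scaling and 2 and 7 after centring. Beside Ccnd3, the mitotic kinase gene Plk1 was at 68.2 FPKM in FGSCs, against 13 in E12.5 PGCs, and the replication licensing factor Cdt1 was at 41.6 in FGSCs, against 15.8 in E12.5 PGCs. Top2a, the topoisomerase of dividing cells, was at 49.7 FPKM in FGSCs, against 218 in E12.5 PGCs, and the inhibitor Cdkn1b (p27) was at 7.15 in FGSCs, against 41.0 in E12.5 PGCs. Cdk4, the partner of D cyclins, was at 783 FPKM in FGSCs, against 688 in E12.5 PGCs.

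Of 39 listed Hox genes, the transcription factors of the body axis, 18 were above 1 FPKM, and 7 were at least 2-fold higher and 1 was lower. Of all genes, 25.0% were higher and 20.7% lower. After centring, 8 Hox genes were higher and 2 lower, beside 19.05% and 16.55% of all genes. Of the 39 Hox genes, 16 were listed at 0 in E12.5 PGCs and 8 in FGSCs. Hoxa9 and Hoxc6 were at 5.45 and 4.26 FPKM in FGSCs and listed at 0 in E12.5 PGCs, so both passed the threshold through FGSCs alone. Hoxd9 was at 14.5 FPKM in FGSCs, against 8.17 in E12.5 PGCs, and the lower gene was Hoxd8, at 5.26 in FGSCs, against 15.4 in E12.5 PGCs.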

How the data were processed

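RNA was sequenced from FGSCs (2 libraries) and E12.5 PGCs (3 libraries), from cDNA primed with oligo(dT) and amplified by PCR per the labels. GV oocytes (2 libraries) were used only for the values at the end. The authors made the deposited FPKM values with TopHat2 and Cufflinks 2.2.1 on mm9 per the submitters' processing notes, and on mm10 per the paper, and the files carry mm9 coordinates. The authors pooled libraries into 1 FPKM per gene and cell type. The pooled values carry neither read depth nor replicate error, and depth per library was not analysed here. Fold changes, test statistics, p-values and q-values deposited by the authors were not used, and 0 columns of single samples were left out. The FGSC values were the same in both tables used of 6.

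Log2 ratios were computed from FPKM + 1 and called at 2-fold, with no test. Gene types, transcript length and GC content came from GENCODE M21 (longest transcript), for 12162 of 12634 genes by identifier. For centring, the median of 10 GC bins with 5 length bins in each was subtracted, as tested on simulated data. Promoters were those of RefSeq. Members and 49 gene lists were chosen with earlier results of these data known. Named genes were the 10 largest and 10 smallest ratios, for each list the 3 largest, the 3 smallest and the 2 most abundant, and defining markers; not every gene this rule chose is printed. Ldha, Cdh1, Peg3, Snrpn, H19, Gata4, Amh, Hba-x, Tfap2c, Sycp1, Krt5, Krt19 and Dsp were named outside it, after their values were seen. Peg13 and Kcnq1ot1 had no match. Alternatives covered pseudocounts, filters, scaling, gene type, test status, the X chromosome and folds. Python 3 was used with pandas and numpy.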

Additional observations from a re-analysis of the deposited data

How the results depend on the processing

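As deposited, 3157 genes were at least 2-fold higher and 2620 lower in FGSCs, and the median log2 ratio was -0.08. A pseudocount of 5 FPKM left 1121 higher and 1419 lower genes. With FPKM over 5 in either cell type, 1669 were higher and 2034 lower, and the median was -0.26. With FPKM over 1 in both, 1285 were higher and 1962 lower, and the median was -0.24. TPM scaling gave 4951 higher and 1271 lower genes and a median of 0.57. Equal sums without globin, mitochondrial and ribosomal protein genes gave 4649 higher and 1125 lower genes and a median of 0.52. At 1.5-fold 4226 were lower beside 4198 higher, and at 4-fold 984 were higher and 493 lower. The cause was not tested where genes were rescaled. By construction, fewer genes pass a stricter fold or filter. A pseudocount of 0.1, no filter, upper-quartile scaling, centring on the median, protein-coding genes, test status OK, the X chromosome and centring on GC content and length kept both counts within 1.5 times. Of 13 lists whose median lay 0.5 or more from that of all genes, 11 kept their side under every alternative run. Keeping a side does not mean keeping the size. Centring on GC content and length moved 41 of all 49 lists by 0.1 or more, and 6 stayed within that. The surface epithelium and Hedgehog lists turned to -0.025 and -0.24 after centring on GC content and length. No paired analysis was possible because the deposited columns are pooled over libraries, and leaving out each replicate was not run for the same reason. With the depth not analysed here, low FPKM values have no known precision.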

Other observations

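GV oocytes, deposited in the same series, were listed beside the same 11321 protein-coding genes. In the bin of lowest transcript GC content, the median log2 ratio of FPKM + 1 was -0.88 for GV oocytes over E12.5 PGCs and -0.34 for GV oocytes over FGSCs. In the bin of highest GC content, these medians were 0.61 and -0.24. The ratios share their samples with the comparison of FGSCs and E12.5 PGCs and are given as values alone.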
